A study of Mus musculus with 11 samples.

Results

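Mouse embryonic stem (ES) cells kept in 2i/LIF were compared with ES cells kept in serum/LIF by gene expression arrays. The comparison took the 5 arrays whose titles name 2i and the 3 arrays whose titles name serum, 8 of the study's 11 arrays. The 3 arrays of a serum replacement medium, KOSR/LIF, had no part in it. Every sample was total RNA of unsorted ES cells from a 129/Ola background, taken after at least 3 passages in its medium. The cells belonged to 3 lines, E14, HVJu5.1 and HVJu9.3. Per the design text, each line gave 1 serum/LIF sample, and the 2i/LIF samples were 2 of HVJu5.1, 2 of HVJu9.3 and 1 of E14. All 8 samples received LIF, so the comparison exchanges serum for 2i and does not test LIF. The labels do not name the inhibitors of 2i or their doses. In this comparison the absence of serum and the presence of the inhibitors cannot be told apart.

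LIF, leukaemia inhibitory factor, acts through a receptor pair and the JAK kinases on the transcription factor STAT3. The medium known as 2i holds an inhibitor of MEK, the kinase upstream of ERK, and an inhibitor of GSK3, a kinase whose activity leads to the loss of beta-catenin. ES cells make FGF4, which feeds the ERK pathway and prepares them to leave the naive state, the state of the epiblast before implantation. Stabilised beta-catenin lifts the repression that TCF7L1 places on naive genes. Cells in serum are known to vary among themselves in naive factors, while cells in 2i are known for a more even naive state.

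Before any comparison, each array was set against its label. The titles and the source names of 2i/LIF replicates 1 to 4 give different cell lines, and only replicate 5 carries the same line in both. The deposited value table of replicate 1 followed the scanner values of replicate 4 (rank correlation 0.995, against 0.933 with its own), and that of replicate 4 followed those of replicate 1 (0.992, against 0.936). The other 6 arrays followed their own scanner values (0.987 to 0.999). Both exchanged arrays are 2i/LIF, so the comparison of the media does not change with it, but the number and line of replicates 1 and 4 are in doubt. The scanner files set the names used here. Between 53.7% and 72.6% of probes were well above background on the 8 arrays, and the 75th percentile of intensity ran from 176 to 537.8. Pearson's r across genes was 0.981 to 0.986 within serum/LIF, 0.949 to 0.981 within 2i/LIF and 0.907 to 0.936 between the media. As a check of the cell type, all 18 core pluripotency genes and all 21 naive genes listed were well above background on every array. Pou5f1, the defining factor of pluripotent cells, stood at 6.14, 6.26 and 6.14 on the serum/LIF arrays and at 6.03, 5.83, 6.25, 6.27 and 6.14 on the 2i/LIF arrays.

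Levels are log2 intensities with the 75th percentile of the array at 0, listed for serum/LIF replicates 1 to 3 and 2i/LIF replicates 1 to 5. A difference is the mean of 2i/LIF minus that of serum/LIF on the log2 scale, with its standard error (n = 5 and 3 arrays). The design text speaks of replicate clones but does not say if 2 samples of a line in 2i/LIF came from separate cultures, so a p-value measures the spread between these samples. A gene rose or fell where limma's adjusted p was under 0.05. The fold is written "at least" for a probe that stayed at background level throughout all arrays of the dimmer medium. There, dim signals were raised, meaning that they were set to the array's lowest signal among probes well above background. The fold is a bound under that floor alone. With another background correction, normexp, differences could be smaller than the bound, as in Thbs1 (-4.11) and Hand1 (-1.51). Where a probe was above background on at most 2 of 5 or 1 of 3 arrays of the dimmer medium, the difference is also given with dim signals raised. In a bulk sample, fewer cells of a type and less RNA per cell cannot be told apart.

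Of 15980 genes tested, 1250 (7.82%) rose and 1642 (10.3%) fell in 2i/LIF. The count of each gene list below is to be read beside these shares. Of the genes that passed, 971 rose and 1461 fell at least 2-fold, and 151 rose and 343 fell at least 8-fold. The arrays of the media did not overlap in 1887 genes with 2i/LIF higher and in 2252 with it lower, whether or not the gene passed. The median difference over all genes was 0.03, against a median SD between replicates of 0.382. Single arrays moved the count of genes that rose, to 713 when serum/LIF replicate 1 was left out and to 825 when serum/LIF replicate 2 was. Under a replicate block, with numbers that the titles tie to cell line and the source names do not, 819 rose and 1250 fell. Scan days 1 and 3 held arrays of both media: 706 rose and 1172 fell within day 1 (2 arrays of each medium), and 454 rose and 785 fell within day 3 (1 serum/LIF and 2 2i/LIF arrays). With scan day as a block 1748 rose and 2021 fell. Of 205 named genes that passed, 92 had a difference over 1.5 times smaller with normexp background correction, which shrinks the differences of dim probes, and 33 no longer passed there. For genes given with values, a call lost in a leave-one-out fit, under the replicate block or with normexp is marked beside the gene. Calls lost within 1 scan day, against a minimum change of 1 on the log2 scale or under the remaining alternatives are not all marked, nor are smaller differences with normexp where the call held. Called genes in the bounded class numbered 52 among those that rose and 116 among those that fell. Each of these was tested through the arrays of the brighter medium alone, so only a change in that direction could be seen in it. The counts of the lists below hold such genes, among them Fgf5, Thbs1, Ankrd1, Hand1, Plac1, Dcn and Twist2.

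**Figure D1:**
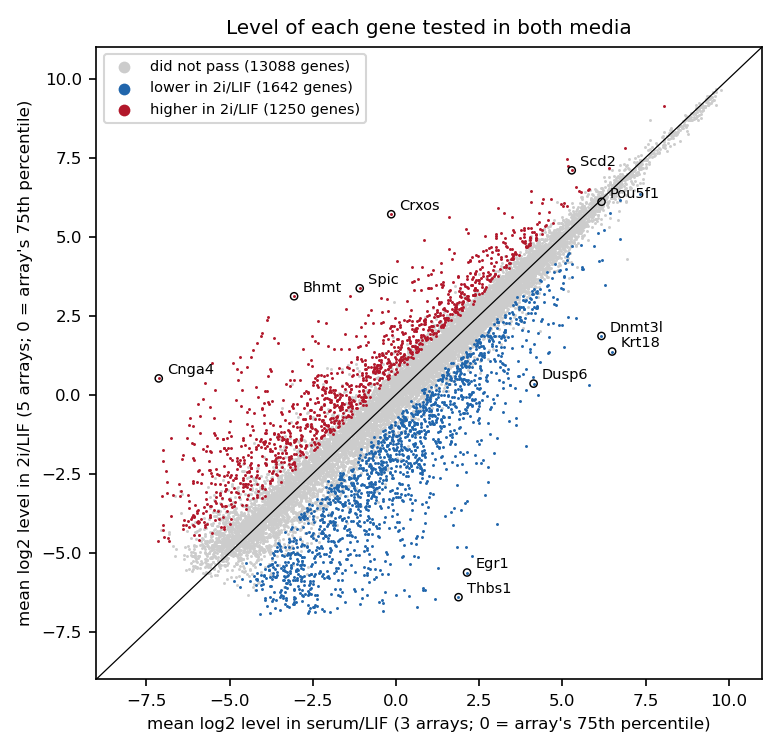
Mean log2 level in 2i/LIF (vertical axis, 5 arrays) against that in serum/LIF (horizontal axis, 3 arrays), with 0 at the array's 75th percentile and 1 point for each of 15980 genes, red for the 1250 that rose, blue for the 1642 that fell and grey for the rest; the line marks equal levels. Dusp6 (-3.79) lies below the line and Crxos (5.85) above it, while Pou5f1 lies on it.

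The FGF to ERK pathway changed at its output and in a few of its ligands and receptors. Of 32 signal transducers tested, 1 rose and 4 fell, and the median was -0.15. None of 10 kinases and none of 11 adaptors and RAS genes passed. Mapk3, which encodes ERK1, differed by -0.50 ± 0.28. Map2k1 and Map2k2, which encode the MEK proteins that 2i inhibits, differed by 0.13 ± 0.25 and -0.02 ± 0.19. Fgf4, the ligand that ES cells make themselves, stood between 5.33 and 6.20 on all 8 arrays and differed by 0.30 ± 0.21 (adjusted p = 0.395). Its main receptor gene in the epiblast, Fgfr1, differed by -0.26 ± 0.36 (adjusted p = 0.712).

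Among the other ligands, Fgf5 fell and Fgf3 rose. Fgf5, the ligand that marks the epiblast after implantation, stood at 0.83, 0.07 and 0.27 in serum/LIF and at -5.90, -6.07, -5.00, -6.49 and -8.34 in 2i/LIF, where no array was well above background. It was at least 36.9-fold lower (adjusted p = 0.000134). Fgf15 fell by 3.53 ± 0.39 (adjusted p = 0.000314), and its 2i/LIF levels of -4.49 to -3.80 lay below the serum/LIF levels of -1.71 to 0.06. Fgf3, a ligand known from otic and tail development, stood at -5.22, -3.86 and -4.14 in serum/LIF and at -1.75, -1.57, -1.79, -1.64 and -1.71 in 2i/LIF. It rose by 2.72 ± 0.29 (adjusted p = 0.000295), and the media did not overlap. Of 5 receptors, Fgfr3 fell by 2.06 ± 0.24 (adjusted p = 0.000433), from -1.13, -1.55 and -1.14 to -2.82, -3.23, -3.45, -3.67 and -3.49. Another probe of Fgfr3 differed by -0.03 (adjusted p = 0.960), and the mean over its probes was -1.05. Fgfr2 also passed (-0.81 ± 0.22, adjusted p = 0.0281), but not when any single serum/LIF array or 2i/LIF replicate 5 was left out, with adjusted p of 0.0528 to 0.111. It was also lost with normexp (adjusted p = 0.162) and under the replicate block (adjusted p = 0.164). Another probe of Fgfr2 differed by -2.92 (adjusted p = 0.000282), and the mean over its probes by -1.86 (adjusted p = 0.000886).

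The genes that ERK activity switches on to restrain the pathway fell in large part. Of 15 feedback inhibitors tested, 9 fell and none rose, with a median of -2.07. Of 8 phosphatases 4 fell, and of 7 inhibitors that act upstream of RAF 5 fell. Dusp6, the cytoplasmic phosphatase of ERK, stood at 4.42, 3.97 and 4.03 on the serum/LIF arrays. It stood at 0.37, 0.10, 1.00, 0.28 and -0.01 on the 2i/LIF arrays, all far below the lowest serum/LIF array. It fell by 3.79 ± 0.26 (adjusted p = 3.64e-05), or 13.8-fold. Dusp4, a nuclear phosphatase of the same family, fell by 5.52 ± 0.69 (adjusted p = 0.000661), from 1.97, 2.06 and 2.18 to -3.96, -1.35, -3.73, -5.18 and -3.0. Spry1, a Sprouty inhibitor of receptor signalling, fell by 2.55 ± 0.36 (adjusted p = 0.00114), from 2.77, 2.53 and 2.60 to 0.94, -0.60, -0.16, -0.38 and 0.62. Spry4 was above background on all serum/LIF arrays (-1.57, -1.32 and -0.37) and on none of 2i/LIF, and was at least 14.2-fold lower (adjusted p = 1.72e-05). Dusp9, Dusp5, Spry2, Spred3 and Spred1 also fell, and the 9 falls ran from -1.45 to -5.55. The 6 members that did not pass ran from -2.85 to 1.02, and Spry3 was not well above background on enough arrays to be tested.

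Many immediate early transcription factors fell, and no factor of the ETS family passed. Of 15 immediate early genes 9 fell, and of 6 ETS family genes none passed, with a median of -0.09. Egr1, the zinc finger factor that follows ERK within minutes, stood at 2.02, 2.01 and 2.39 in serum/LIF and at -4.93, -5.74, -6.39, -6.20 and -4.89 in 2i/LIF, where 1 of 5 arrays was well above background. It fell by 7.77 ± 0.38 (adjusted p = 9.08e-06), and fell by 6.78 with dim signals raised. Myc, the growth regulator, stood at 1.41, 1.43 and 1.45 in serum/LIF and at -1.96, -4.15, -1.52, -1.34 and -1.80 in 2i/LIF, with replicate 2 lowest. It fell by 3.58 ± 0.57 (adjusted p = 0.00224), and the media were far apart. Fosl2, a subunit of the AP-1 factor, fell by 3.99 ± 0.45 (adjusted p = 0.000385; -3.42 with dim signals raised), while another of its probes differed by -0.40 (adjusted p = 0.377) and the mean over its probes by -2.20. Junb, Jun, Maff, Ier3, Fosl1 and Egr2 fell as well. Egr2 was no longer called with normexp background correction, where it stood at -0.46 (adjusted p = 0.488). The 12 other factors ran from -2.19 to 0.12.

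**Figure D2:**
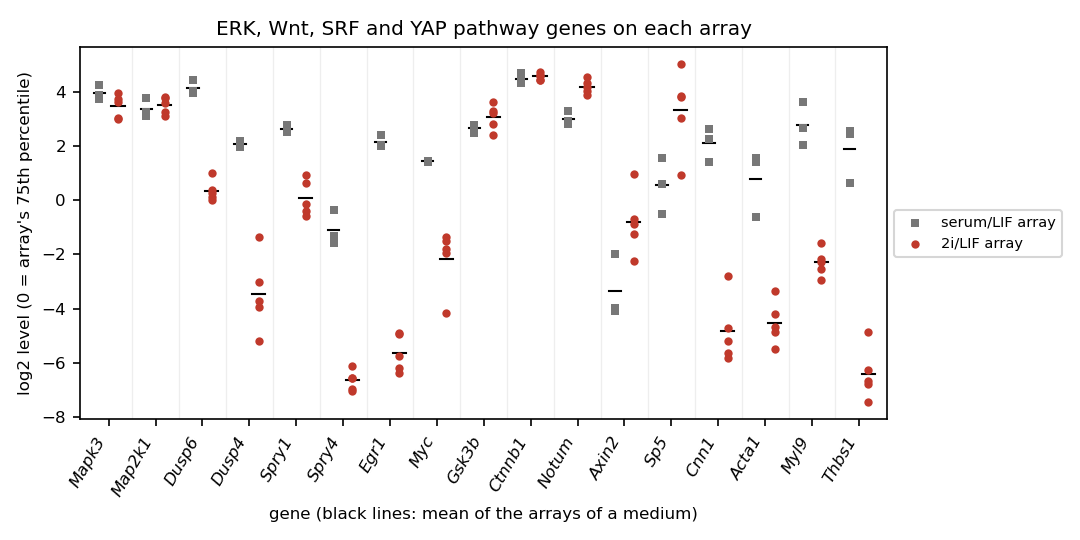
Log2 level of signalling genes on each array (0 is the array's 75th percentile), grey squares for the 3 serum/LIF arrays, red circles for the 5 2i/LIF arrays and black lines for means. ERK feedback and SRF genes separate with 2i/LIF below serum/LIF, as in Dusp6 (-0.01 to 1.00 against 3.97 to 4.42), while kinase genes such as Map2k1 overlap.

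Many genes of the actin cytoskeleton that serum response factor (SRF) controls fell, with no member of the list passing in the other direction. SRF binds the CArG box and answers to serum through actin assembly and through ERK. Of 26 members tested, 15 fell and none rose, with a median of -0.99. Of 12 contractile genes 6 fell, of 11 focal adhesion and cross-linker genes 8 fell, and of 3 regulators 1 fell, Srf itself. Myl9, a myosin light chain, stood at 3.62, 2.04 and 2.65 in serum/LIF and at -2.54, -1.57, -2.16, -2.94 and -2.27 in 2i/LIF. It fell by 5.06 ± 0.40 (adjusted p = 5.55e-05), or 33.4-fold. Cnn1, calponin of smooth muscle, fell by 6.93 ± 0.64 (adjusted p = 0.000131; -6.70 with dim signals raised), from 2.62, 1.41 and 2.25 to -4.73, -2.79, -5.65, -5.21 and -5.80. Acta1, skeletal alpha actin, fell by 5.29 ± 0.58 (adjusted p = 0.000317; -5.04 with dim signals raised), from 1.55, -0.61 and 1.39 to -5.47, -3.35, -4.18, -4.87 and -4.69. Fhl2, a LIM protein that binds SRF, fell by 5.33 ± 0.69 (adjusted p = 0.000726; -4.82 with dim signals raised), from 1.07, -0.30 and 1.03 to -4.22, -3.85, -6.01, -6.19 and -3.39. In these 4 genes serum/LIF replicate 2 was the lowest of its medium and still lay above every 2i/LIF array. Acta2, Flnc, Zyx, Tpm2, Cnn2, Pdlim7, Fhl1, Flna, Actn4 and Vcl fell too, and the 11 members that did not pass ran from -1.41 to 0.37.

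The promoters of 3 of these genes are shown because each holds a CArG box close to the start of transcription. They are RefSeq sequences of GRCm38.p6, the 250 bases before the start, written 5′ to 3′ along the gene's strand, with the CArG box in capitals. Fhl2 lies on the minus strand at chr1:43163962-43164211, with the box 31 to 22 bases before the start. Acta1 lies on the minus strand at chr8:123894776-123895025, with the box at 73 to 64 bases. Myl9 lies on the plus strand at chr2:156775214-156775463, with the box at 161 to 152 bases.
Fhl2: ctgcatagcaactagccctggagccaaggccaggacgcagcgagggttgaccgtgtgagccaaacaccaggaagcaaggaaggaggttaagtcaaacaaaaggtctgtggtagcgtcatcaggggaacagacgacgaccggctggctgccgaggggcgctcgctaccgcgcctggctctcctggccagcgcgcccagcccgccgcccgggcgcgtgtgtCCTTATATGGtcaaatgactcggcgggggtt
Acta1: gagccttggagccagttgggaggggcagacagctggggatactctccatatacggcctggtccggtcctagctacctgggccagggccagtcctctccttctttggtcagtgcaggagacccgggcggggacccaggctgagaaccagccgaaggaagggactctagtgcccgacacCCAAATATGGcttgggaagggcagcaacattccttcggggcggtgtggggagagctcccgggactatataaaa
Myl9: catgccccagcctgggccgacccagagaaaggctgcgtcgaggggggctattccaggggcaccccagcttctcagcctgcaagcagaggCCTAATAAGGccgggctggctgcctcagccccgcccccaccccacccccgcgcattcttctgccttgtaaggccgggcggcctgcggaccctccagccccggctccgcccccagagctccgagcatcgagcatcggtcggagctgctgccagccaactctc
The search covered both strands of the 250 bases before the start in the 12688 tested genes that matched the RefSeq promoter table, and Fhl2 has 2 promoters there. A CArG box stood in 201 of those genes (1.58%), in 8 of 24 matched SRF and actin genes (33.3%) and in 7 of the 15 that fell (46.7%). It stood in 1 of 15 matched ERK-induced factors. SRF targets are known by such boxes, so the share in the list describes how the list was drawn up and is no test of SRF in these cells.

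YAP, a co-factor of the TEAD factors that senses cell shape and stiffness, has targets of its own, and these fell too. Of 15 targets 9 fell and none rose, with a median of -2.32. Thbs1, thrombospondin of the matrix, stood at 2.45, 0.64 and 2.56 in serum/LIF and was above background on no 2i/LIF array (-6.79, -4.84, -6.68, -6.27 and -7.46). It was at least 111-fold lower (adjusted p = 4.00e-05). Ankrd1, a muscle ankyrin protein, was at least 6.71-fold lower (adjusted p = 0.000360). Ccn1, a secreted matrix signal, fell by 2.75 ± 0.52 (adjusted p = 0.00526), from 3.11, 2.26 and 2.35 to -0.78, 1.22, -0.95, -0.88 and 0.48, with 2i/LIF replicate 2 nearest to serum/LIF. Tgfb2 fell by 2.88 ± 0.47 (adjusted p = 0.00271), and F3, Lats2, Ccn2, Crim1 and Ajuba fell as well. Of the TEAD factors and their partners, Tead3 fell and Tead4 rose by 1.34 ± 0.35. That rise was lost when any single serum/LIF array or 2i/LIF replicate 4 or 5 was left out, and under the replicate block. The TEAD motif GGAATG, searched on both strands, stood in 10 of 16 matched members (62.5%) and in 13.2% of all matched genes. Of the 8 matched members that fell it stood in 5, also 62.5%. The list holds known YAP targets and TEAD factors, so this share describes the list and is no test of YAP or TEAD in these cells. Fibroblast markers fell in part as well: 7 of 13 tested fell and none rose. Their summed level, with the 75th percentile of the array as 1, was 100 to 114 in serum/LIF and 81.5 to 127 in 2i/LIF. Fn1, which did not pass, held the largest share of that sum. Postn, Prrx1, Tcf21 and Meox2 were not above background on enough arrays to be tested. The part of fibroblast-like RNA in the falls was not tested.

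Genes of the GSK3 and beta-catenin machinery did not pass, while a few feedback targets rose. None of 17 genes of the destruction complex, beta-catenin and the TCF factors passed, with a median of -0.01 and a range of -1.27 to 0.49. At an unadjusted p under 0.05 limma called 1 of them. Gsk3a and Gsk3b, the kinases that the inhibitor blocks, differed by 0.26 ± 0.21 and 0.40 ± 0.28. Ctnnb1, which encodes beta-catenin, differed by 0.08 ± 0.18, and the repressor gene Tcf7l1 by 0.15 ± 0.23.

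Of 17 targets of beta-catenin 4 rose and none fell, with a median of 0.14. The count of falls was 1 without 2i/LIF replicate 2, with the mean over probes and with scan day or slide as a block. For Nkd2, a probe differed by -0.32 (adjusted p = 0.364) and another by -3.63 (adjusted p = 0.000286). Notum, an enzyme that strips Wnt of its lipid, stood at 2.82, 2.91 and 3.28 in serum/LIF and at 3.89, 4.02, 4.33, 4.53 and 4.18 in 2i/LIF. It rose by 1.19 ± 0.22 (adjusted p = 0.00458), with all 5 arrays above all 3, and the call held in each leave-one-out fit but not under the replicate block. Axin2, the scaffold of the destruction complex and the standard reporter of the pathway, stood at -4.08, -3.96 and -2.0 in serum/LIF and at 0.97, -2.26, -1.25, -0.68 and -0.87 in 2i/LIF. It rose by 2.53 ± 0.70 (adjusted p = 0.0338), with serum/LIF replicate 3 higher than 2i/LIF replicate 2. The call on Axin2 was lost when serum/LIF replicate 1 or 2 or 2i/LIF replicate 4 or 5 was left out (adjusted p of 0.0595 to 0.144), with normexp (1.31, adjusted p = 0.0526), under the replicate block (adjusted p = 0.0733) and without the filter on dim probes (adjusted p = 0.0605). Another probe of Axin2 differed by 2.06 (adjusted p = 0.000962). Sp5 (2.78 ± 0.82) and Apcdd1 (1.40 ± 0.36) also passed. Sp5 was lost in 7 of 8 leave-one-out fits and with quantile normalization (adjusted p = 0.0527). Apcdd1 was lost in 4 of 8, with normexp (adjusted p = 0.0504) and under the replicate block (adjusted p = 0.0561). As a count, 4 rises became 1 without serum/LIF replicates 1 or 2, and 2 without serum/LIF replicate 3 or 2i/LIF replicates 1, 4 or 5. The range of the 13 that did not pass was -0.84 to 3.00, the last being the homeobox gene Cdx1, whose 2i/LIF arrays ran from 0.38 to 5.57. Cdx1 passed when 2i/LIF replicate 2 was left out and with scan day as a block.

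The Wnt ligands fell more than they rose. Of 10 ligands tested 6 fell and 2 rose, and of 13 receptors 2 fell and 1 rose. Wnt4 stood at 1.57, -0.32 and 0.58 in serum/LIF and at -4.48, -4.40, -4.60, -4.82 and -4.32 in 2i/LIF, above background on 2 of 5 arrays. It fell by 5.14 ± 0.37 (adjusted p = 3.81e-05; -4.90 with dim signals raised). Wnt10a, Wnt7a and Wnt7b fell with it, as did Wnt3 and Wnt8a, which were lost when serum/LIF replicate 1 or 3 was left out. Wnt10a (-1.02, adjusted p = 0.0824), Wnt3 (-0.91, adjusted p = 0.147) and Wnt8a (-0.74, adjusted p = 0.149) did not pass with normexp, nor with slide as a block. Wnt11, a ligand of the branch that does not use beta-catenin, rose by 1.57 ± 0.32 (adjusted p = 0.00745), with -2.94 to -2.74 in serum/LIF and -2.07 to -0.53 in 2i/LIF. The receptor gene Fzd10 stood at 1.66, 0.76 and 1.68 in serum/LIF and at 4.16, 2.76, 3.51, 3.93 and 3.19 in 2i/LIF and rose by 2.14 ± 0.36 (adjusted p = 0.00300). Wnt5b rose, and the receptors Fzd7 and Fzd1 fell. With a stricter filter on dim probes 5 genes of this list fell in place of 8, and with normexp 4.

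Naive factors rose in part, and none of those tested fell in the main fit. Of 21 members 8 rose, with a median of 0.42, and the other 13 ran from -1.09 to 0.90. The count of falls was 1 without 2i/LIF replicate 1 and under several alternatives, among them scan day or slide as a block. Spic, an ETS factor known from macrophages of the spleen and from naive ES cells, stood at -1.34, -1.30 and -0.63 in serum/LIF. It stood at 3.72, 3.33, 2.28, 3.71 and 3.78 in 2i/LIF and rose by 4.45 ± 0.37 (adjusted p = 7.24e-05), or 21.9-fold. Tfcp2l1, a naive factor downstream of LIF and beta-catenin, went from 3.47, 3.69 and 4.11 to 5.48, 4.72, 5.25, 5.30 and 5.28, a rise of 1.45 ± 0.24 (adjusted p = 0.00260). Prdm14, which holds back DNA methylation and FGF signalling, went from 1.39, 1.51 and 2.00 to 2.96, 2.84, 2.81, 3.09 and 3.79, a rise of 1.46 ± 0.27 (adjusted p = 0.00500). Kit, the receptor of stem cell factor, went from 1.64, 2.11 and 2.90 to 3.84, 4.29, 4.24, 4.32 and 4.41, a rise of 2.00 ± 0.29 (adjusted p = 0.00134). In all 4 genes the lowest 2i/LIF array lay above the highest serum/LIF array. These 4 were named as the largest rises of the list, and 1887 of all 15980 genes had such a gap with 2i/LIF higher. Tbx3, Jam2, Tcl1 and Nanog made up the rest.

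Nanog passed by a narrow margin. It stood at 3.26, 3.50 and 3.78 in serum/LIF and at 4.29, 4.21, 4.33, 4.22 and 4.63 in 2i/LIF, with no overlap, and rose by 0.82 ± 0.20 (adjusted p = 0.0190). Without serum/LIF replicate 1 it stood at 0.695 (adjusted p = 0.109) and without serum/LIF replicate 2 at 0.813 (adjusted p = 0.0709), and it was lost under the replicate block, with normexp and with the mean over its probes. The count of 8 naive genes became 5 without either of those arrays. Klf4 (0.41 ± 0.36), Esrrb (0.09 ± 0.23) and Zfp42 (-0.24 ± 0.26), further naive factors, overlapped between the media and did not pass.

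Among general pluripotency genes, Lin28a, Lin28b and others fell while Pou5f1 did not pass. Of 18 tested 6 fell and none rose, with a median of -0.65. Pou5f1 differed by -0.07 ± 0.18 and its partner Sox2 by -0.55 ± 0.19 (adjusted p = 0.0798). Sox2 levels were 3.88, 3.82 and 4.22 in serum/LIF and 3.54, 3.19, 3.46, 3.56 and 3.35 in 2i/LIF, without overlap, and it passed with quantile normalization and with the deposited value table. Lin28b and Lin28a, which block the maturation of let-7 microRNAs, both fell. Lin28b fell by 3.30 ± 0.25 (adjusted p = 4.73e-05), from 3.07, 2.87 and 2.55 to -0.70, -0.53, -0.84, -0.33 and 0.07. Lin28a fell by 3.01 ± 0.58 (adjusted p = 0.00580), from 5.59, 5.52 and 5.16 to 2.38, 1.63, 3.75, 3.32 and 0.97. Utf1, a chromatin factor of pluripotent cells, fell by 2.83 ± 0.50 (adjusted p = 0.00392). Dppa4 and Tdgf1 fell as well.

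Genes of the formative and primed epiblast, the states that follow the naive state, fell over most of their list. Of 22 tested 15 fell and none rose, with a median of -2.70 against 0.03 over all genes. The 7 that did not pass ran from -1.27 to 0.32, and Cer1 was too dim to be tested. Pou3f1, a POU factor of the epiblast, stood at 3.59, 3.53 and 3.70 in serum/LIF and at -0.79, -1.23, -0.80, -1.55 and -0.41 in 2i/LIF. It fell by 4.56 ± 0.27 (adjusted p = 1.72e-05), or 23.6-fold, with little spread in either medium. Sox11, a factor of neural fate, fell by 5.14 ± 0.39 (adjusted p = 5.07e-05; -4.81 with dim signals raised), from 0.98, 0.67 and 0.77 to -4.60, -4.23, -3.53, -5.45 and -3.83. Enpp3, a nucleotide pyrophosphatase, fell by 3.97 ± 0.57 (adjusted p = 0.00135), from 2.63, 2.60 and 2.41 to -2.16, 0.42, -1.95, -1.05 and -2.38, with 2i/LIF replicate 2 highest of its medium. Cldn6, Sox4, Car14, Tcf15, Sox3, Pim2, Otx2, Cdh2, Grhl2 and Dnmt3b fell too, beside Fgf5 and Fgf15 above. Summed over the list, the level was 140 to 197 in serum/LIF and 30.8 to 75.7 in 2i/LIF. Dnmt3b held the largest share of that sum.

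LIF was in both media, and 4 of the 9 targets of its pathway fell. None of 7 receptor and transducer genes passed. Lifr, the receptor gene, stood between 2.33 and 2.62 on all 8 arrays and differed by -0.09 ± 0.17. Averaged over its probes it rose by 0.625 (adjusted p = 0.0475), so its probes differ. Stat3 differed by -0.06 ± 0.31, with 2i/LIF replicate 2 lowest at 2.09. Of 9 targets 4 fell, all of them inhibitors or kinases that STAT factors induce. Socs3, the inhibitor that shuts off LIF signalling, stood at 4.76, 4.74 and 4.74 in serum/LIF and at 3.00, 1.69, 2.82, 2.98 and 3.91 in 2i/LIF, and fell by 1.86 ± 0.41 (adjusted p = 0.0114). Cish, of the same family, fell by 2.51 ± 0.20 (adjusted p = 6.27e-05), from 0.49, 0.64 and 0.67 to -1.93, -1.68, -1.86, -1.78 and -2.30. Pim3 and Socs2 fell, with differences of -1.49 ± 0.32 and -1.22 ± 0.27, and both were lost when serum/LIF replicate 1 or 2 was left out, which kept 2 falls.

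BMP signals, which serum supplies in part, had 3 of 5 immediate targets lower in 2i/LIF. Id1, Id2 and Id3, inhibitors of helix-loop-helix factors, fell, and Id4 rose. Id2 stood at 2.99, 2.03 and 2.84 in serum/LIF and at -2.28, -1.24, -2.70, -2.68 and -1.48 in 2i/LIF, and fell by 4.70 ± 0.40 (adjusted p = 8.53e-05). Id1 fell by 4.59 ± 0.56 (adjusted p = 0.000584), from 2.73, 1.97 and 2.56 to -1.44, -4.08, -2.01, -1.84 and -1.49. Of 5 ligands and antagonists tested, Bmp8b, Bmp2 and Bmp4 fell and Bmp7 rose. Bmp8b fell by 3.80 ± 0.27 (adjusted p = 3.81e-05). Bmp7 stood at -1.10, 0.38 and -0.35 in serum/LIF and at 2.00, 2.27, 1.45, 1.95 and 1.61 in 2i/LIF, a rise of 2.21 ± 0.34 (adjusted p = 0.00176). Among 8 receptors and SMADs Bmpr1b fell and Smad1 and Smad9 rose. With normexp Bmpr1b differed by -0.42 (adjusted p = 0.609) and Smad9 by 0.30 (adjusted p = 0.726), and neither passed. Smad9 was also lost without serum/LIF replicate 2 or 3 and with slide as a block, and Bmpr1b without the filter on dim probes (adjusted p = 0.136). The 4 rises of the list became 2 without serum/LIF replicates 1 or 2 and 1 without serum/LIF replicate 3.

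Nodal and TGF-beta genes fell in 9 of 29 and rose in 1. Inhba, the activin subunit, was at least 4.92-fold lower (adjusted p = 0.00108), a call lost with normexp (adjusted p = 0.103). Ltbp1, Gdf1, Skil, Acvr2b, Tdgf1, Cfc1 and Tgfb2 fell as well, Cfc1 not without serum/LIF replicate 2 (adjusted p = 0.0558), and the coreceptor gene Tgfbr3 rose by 1.81 ± 0.38, a call lost when serum/LIF replicate 2 was left out. In the Notch list 6 of 19 fell and none rose. Mfng, a sugar transferase that tunes Notch receptors, fell by 2.01 ± 0.27 (adjusted p = 0.000975), from 1.44, 1.84 and 1.84 to 0.28, -0.72, -0.06, -0.72 and -0.31. Jag2, a Notch ligand, fell by 1.60 ± 0.31 (adjusted p = 0.00568).

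Some guidance molecules of ES cells fell. Of 18 Eph receptors and ephrins 4 fell and 1 rose (0 with serum/LIF replicate 1 left out, 2 with 2i/LIF replicate 2 or 5 left out). Epha1 stood at 2.24, 1.42 and 1.82 in serum/LIF and at -2.99, -3.41, -2.29, -2.24 and -3.34 in 2i/LIF, and fell by 4.68 ± 0.34 (adjusted p = 4.00e-05). The ligand genes Efnb2 and Efna5 fell, with differences of -2.86 ± 0.30 (adjusted p = 0.000228) and -2.68 ± 0.32 (adjusted p = 0.000478). Another probe of Efnb2 differed by -0.09 (adjusted p = 0.909), the mean over its probes was -1.48, and normexp gave -1.82. Of 24 semaphorins, slits and receptors 8 fell and 1 rose, and 5 or 4 fell without serum/LIF replicates 1 or 2. The 1 rise was lost in 7 of 8 leave-one-out fits. Sema3e fell by 4.76 ± 0.48 (adjusted p = 0.000191), from 0.20, -0.30 and 0.63 to -4.87, -6.00, -3.87, -3.99 and -4.18. Sema3c fell by 4.95 ± 0.75 (adjusted p = 0.00174; -4.28 with dim signals raised).

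Several structural genes that mark other lineages fell, while the defining factors Gata6, Cdx2 and T did not pass. Of 7 primitive endoderm factors tested none passed, and of 12 surface and secreted genes 8 fell. Gata6, a defining factor of that lineage, stood at -4.54, -2.91 and -2.31 in serum/LIF and at -4.66, -2.24, -3.99, -5.77 and -3.37 in 2i/LIF, above background on 2 of 3 and 3 of 5 arrays, and differed by -0.75 ± 0.76. Gata4 and Sox17 did not pass either. Lrp2, an endocytic receptor, fell by 4.06 ± 0.49 (adjusted p = 0.000523), from 3.35, 2.87 and 2.23 to -0.58, -1.37, -1.63, -2.41 and -0.20, and Dab2, its adaptor, fell by 4.12 ± 0.72 (adjusted p = 0.00355; -2.61 with dim signals raised). The median of the list, -0.75, ran from -1.397 without serum/LIF replicate 1 to -0.281 without serum/LIF replicate 3. Its summed level was 136 to 196 in serum/LIF and 104 to 167 in 2i/LIF, and Sox7, Ttr and Afp were too dim to test. Sparc, which did not pass, held the largest share of that sum.

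The trophoblast list fell in 8 of 20 and rose in 3. Cdx2, its defining factor, stood at -0.94, -2.71 and -1.48 in serum/LIF and at 0.09, -5.96, -3.68, -1.25 and -1.98 in 2i/LIF, and differed by -0.84 ± 1.17 (adjusted p = 0.711). Krt18, a keratin of simple epithelia, stood at 7.11, 5.93 and 6.45 in serum/LIF and at 2.41, 1.51, 0.59, 1.53 and 0.77 in 2i/LIF. It fell by 5.13 ± 0.43 (adjusted p = 7.94e-05), or 35.1-fold. Hand1, a factor of trophoblast and mesoderm, was at least 12.7-fold lower (adjusted p = 3.75e-05). Tfap2a, an AP-2 factor, went the other way, from -2.16, -2.58 and -2.74 to 0.22, 0.33, -0.21, 1.22 and 0.42, a rise of 2.88 ± 0.31 (adjusted p = 0.000306). The 3 rises became 1 without serum/LIF replicates 1 or 2 or 2i/LIF replicates 4 or 5. The summed level was 190 to 414 in serum/LIF and 50.4 to 287 in 2i/LIF, with the largest share held by Gcm1, which did not pass.

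Streak, neural, blood and fibroblast lists had few rises. Of 16 streak and mesoderm genes 2 fell, or 1 with serum/LIF replicate 1 or 3 left out, and 1 rose, Gsc, the organiser homeobox gene. Over all genes tested 10.3% fell and 7.82% rose. Gsc stood at -4.41, -3.39 and -3.39 in serum/LIF and at -0.04, 0.11, -0.77, -0.75 and 0.46 in 2i/LIF, a rise of 3.53 ± 0.36 (adjusted p = 0.000221), while T, the defining streak factor, differed by -0.81 ± 1.15 (adjusted p = 0.719). Of 16 neural genes 4 fell, and 1 rose with 2i/LIF replicate 4 left out. Gap43, a protein of nerve endings, fell by 5.33 ± 0.37 (adjusted p = 3.75e-05), from 1.96, 1.44 and 1.84 to -4.41, -3.48, -2.55, -3.75 and -3.72. Of 12 blood and endothelial genes, Runx1 and Tal1 fell, neither was called with normexp, and 4 fell with 2i/LIF replicate 2 left out. Of 13 fibroblast markers 7 fell, or 4 without serum/LIF replicate 3. The falls were also 4 with a stricter filter on dim probes and 3 with normexp. Dcn and Twist2 were above background on no 2i/LIF array, so only a fall could be seen in them. Mmp2, a matrix protease, fell by 3.42 ± 0.56 (adjusted p = 0.00252), and Twist2 was at least 5.59-fold lower (adjusted p = 0.000646; 0.0554 with normexp).

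Epithelial and basement membrane genes fell together with Krt18. Of 22 junction and keratin genes 12 fell and none rose, or 7 without serum/LIF replicate 1. Krt19 fell by 5.53 ± 0.87 (adjusted p = 0.00217), from 3.92, 3.19 and 4.59 to -3.44, -2.09, 0.96, -0.89 and -2.72, with a wide spread among 2i/LIF arrays. Krt8, the partner of Krt18, fell by 3.11 ± 0.50 (adjusted p = 0.00249), and Cldn7, a tight junction protein, fell by 3.13 ± 0.40 (adjusted p = 0.000702). Of 25 matrix genes 9 fell and 2 rose, or 1 with serum/LIF replicate 1 left out. Col4a1 and Col4a2, the paired chains of collagen IV, fell, with differences of -4.31 ± 0.57 (adjusted p = 0.000866) and -3.44 ± 0.36 (adjusted p = 0.000257). Lamb1, a laminin chain, fell by 3.25 ± 0.29 (adjusted p = 0.000114), from 4.80, 4.57 and 4.43 to 1.03, 2.09, 1.1, 1.61 and 0.91. Nid1, the linker of laminin and collagen IV, rose instead, from 2.95, 3.03 and 3.49 to 5.24, 5.1, 4.59, 5.07 and 5.54, by 1.96 ± 0.25 (adjusted p = 0.000702).

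Among genes for DNA methylation Dnmt3l and Dnmt3b fell and Uhrf1 rose. Dnmt3l, the co-factor that stimulates the new methyltransferases, stood at 6.13, 6.69 and 5.72 in serum/LIF and at 2.54, -0.43, 2.63, 2.50 and 2.05 in 2i/LIF, with replicate 2 lowest. It fell by 4.32 ± 0.66 (adjusted p = 0.00186). Dnmt3b fell by 1.88 ± 0.47 (adjusted p = 0.0202), from 6.49, 6.24 and 5.62 to 4.34, 2.77, 5.04, 4.51 and 4.51. Its adjusted p was 0.0917 with serum/LIF replicate 1 left out and 0.0754 with replicate 2 left out. Dnmt3a differed by -0.63 ± 0.29 (adjusted p = 0.175). Uhrf1, which brings the maintenance enzyme to newly copied DNA, rose in mRNA, from 5.35, 5.33 and 5.58 to 6.58, 6.35, 6.52, 6.53 and 6.8, by 1.14 ± 0.18 (adjusted p = 0.00246), a call lost under the replicate block. None of 10 demethylation and reader genes passed.

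Some Polycomb genes passed, in both directions within the complex that marks H2A. Of 30 tested 4 rose and 4 fell, not far from the 7.82% and 10.3% of all genes. Of 11 PRC2 genes 2 fell, Phf19 (not without serum/LIF replicate 3, adjusted p = 0.0618) and Jarid2 (not under the replicate block, adjusted p = 0.105), and of 19 PRC1 genes 4 rose and 2 fell. Cbx8, a chromodomain subunit, stood at -5.97, -6.56 and -4.27 in serum/LIF and at -1.34, -1.57, -2.48, -2.42 and -1.09 in 2i/LIF, and rose by 3.82 ± 0.53 (adjusted p = 0.00108; 2.60 with dim signals raised). Pcgf5, a ring finger subunit, went the other way, from 2.00, 1.90 and 2.46 to 0.72, -0.12, 0.08, 0.43 and 1.19, and fell by 1.66 ± 0.31 (adjusted p = 0.00530). Bmi1 and Pcgf1 rose and Phc1 fell, the last not under the replicate block (adjusted p = 0.0938). Of 15 genes for H3K9 methylation 1 fell, Kdm4c, and that call was lost in 7 of 8 leave-one-out fits, with normexp and under the replicate block.

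Imprinted genes fell in 12 of 31 and rose in 2, with a median of -0.91. Of 19 expressed from the paternal allele 8 fell, and of 12 expressed from the maternal allele 4 fell. Magel2, paternal, stood at 0.31, -0.03 and 0.23 in serum/LIF and at -3.68, -3.22, -3.28, -3.76 and -2.72 in 2i/LIF, and fell by 3.51 ± 0.26 (adjusted p = 4.27e-05). Dlk1, a paternal growth regulator, fell by 3.66 ± 0.67 (adjusted p = 0.00468), from 1.28, 0.88 and 0.64 to -2.36, -2.38, -2.82, -4.88 and -1.20. Peg10, derived from a retroelement, fell by 3.97 ± 0.51 (adjusted p = 0.000707; -3.45 with dim signals raised). Cdkn1c, Igf2, Sgce, Nnat, Phlda2, Snrpn, Ndn, Ppp1r9a and Gatm fell too, Gatm not with normexp (adjusted p = 0.362). Plagl1, a zinc finger factor that acts on other imprinted genes, went the other way, from 1.64, 2.56 and 2.28 to 4.77, 5.52, 4.95, 3.98 and 6.30, a rise of 2.94 ± 0.47 (adjusted p = 0.00235), and 1.90 as the mean over its probes, 1 of which did not pass (0.82, adjusted p = 0.172). H19 and Meg3 were among the 7 members too dim to be tested.

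Germ cell genes were split. Of 20 tested 3 rose, or 5 with 2i/LIF replicate 4 left out, and 4 fell. Ddx4, the germ cell helicase, fell by 2.20 ± 0.30 (adjusted p = 0.00103), from 1.08, 0.46 and 0.13 to -1.69, -0.96, -1.80, -2.07 and -1.67, and Mael, of the piRNA pathway, fell by 2.25 ± 0.30 (adjusted p = 0.000910). Hormad1, of the meiotic chromosome axis, rose from -1.62, -2.83 and -2.20 to 0.55, -0.38, 0.87, -0.46 and 0.30, by 2.39 ± 0.38 (adjusted p = 0.00228), while another of its probes did not pass (1.99, adjusted p = 0.102). Of 8 genes of the 2-cell embryo Usp17lc rose and Zfp352 fell. Usp17lc was lost with normexp (adjusted p = 0.612) and under the replicate block (adjusted p = 0.0575), another probe of Zfp352 differed by 0.03 (adjusted p = 0.970), and the Zscan4 genes varied within 2i/LIF as described further on.

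Some Hox genes, which most ES cells hold silent under Polycomb, rose. Of 22 tested 8 rose and none fell, with a median of 1.96 (1.363 with serum/LIF replicate 2 left out, 2.469 with 2i/LIF replicate 4 left out), and 10 listed were too dim to be tested. The filter admits a gene seen in 2i/LIF alone, so the count over tested genes is not a count over the family. Of the 11 genes of clusters C and D 6 rose, all in cluster C, and of 11 in clusters A and B 2 rose. Hoxc13 stood at -2.14, -1.28 and -2.80 in serum/LIF and at 0.23, 1.04, 0.62, 0.34 and 0.82 in 2i/LIF, a rise of 2.68 ± 0.34 (adjusted p = 0.000702). Hoxc4 went from -4.15, -5.50 and -3.38 to 1.79, 0.80, 0.80, 0.87 and 1.74, a rise of 5.54 ± 0.47 (adjusted p = 8.04e-05; 5.26 with dim signals raised). Hoxb13 went from -3.66, -2.98 and -3.29 to 1.51, -0.52, -0.63, -0.19 and 1.57, a rise of 3.66 ± 0.56 (adjusted p = 0.00189), with 2i/LIF replicates 1 and 5 highest. Hoxc5, Hoxc6, Hoxc9, Hoxc10 and Hoxb9 rose too, Hoxc5 not with normexp (adjusted p = 0.0585). The 8 rises became 5 without serum/LIF replicates 1 or 2, 5 with the cell line of the titles as a covariate, 4 within scan day 1 and 14 within scan day 3. In the retinoic acid list, whose genes act on Hox clusters, 3 of 20 rose and 4 fell, or 1 and 2 with serum/LIF replicate 3 left out. The falls were also 2 with serum/LIF replicate 1 or 2i/LIF replicate 4 left out. Cyp26a1, the enzyme that destroys retinoic acid, fell by 2.95 ± 0.25 (adjusted p = 8.42e-05; -2.63 with dim signals raised), and Meis2, a Hox partner, rose by 3.28 ± 0.58 (adjusted p = 0.00398).

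Many genes of cholesterol and fatty acid synthesis rose, the enzymes and regulators that supply membrane lipids. Of 33 cholesterol genes 18 rose and none fell, with a median of 0.84, and of 16 fatty acid genes 8 rose and none fell, with a median of 0.92. The cholesterol set held 13 of 20 enzymes and 5 of 13 genes of regulation, uptake and export. Msmo1, a demethylase of the late pathway, stood at 3.59, 4.08 and 3.86 in serum/LIF and at 5.32, 5.15, 5.33, 5.27 and 5.27 in 2i/LIF, a rise of 1.42 ± 0.18 (adjusted p = 0.000746). Insig1, which retains the sterol sensor, went from -1.95, -1.18 and -1.40 to 0.10, 0.97, 0.42, 0.27 and 0.08, a rise of 1.88 ± 0.27 (adjusted p = 0.00137). Tm7sf2, a sterol reductase, rose by 1.83 ± 0.30 (adjusted p = 0.00256). Sqle and Srebf2 were among the others, and the smallest of the 18 rises was 0.75. The count changed with single arrays: 4 of 33 rose without serum/LIF replicate 1 and 8 without serum/LIF replicate 3, and 6 under the replicate block. Scd1 and Scd2, the desaturases that make oleate, went from 0.16, 1.79 and 1.38 to 3.62, 4.26, 3.78, 4.04 and 4.01 and from 5.02, 5.76 and 5.07 to 7.01, 6.73, 7.28, 7.40 and 7.06. They rose by 2.83 ± 0.35 (adjusted p = 0.000594) and 1.82 ± 0.25 (adjusted p = 0.000972), and 5 fatty acid genes rose without serum/LIF replicates 1 or 2.

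Enzymes of choline and betaine breakdown held 3 large rises. Of 10 such genes these 3 rose, and none of the others passed. Bhmt, which passes a methyl group from betaine to homocysteine, stood at -4.01, -2.88 and -2.29 in serum/LIF and at 3.6, 3.02, 2.59, 2.54 and 3.82 in 2i/LIF. It rose by 6.17 ± 0.44 (adjusted p = 3.75e-05), or 72.2-fold. Its neighbour in function Bhmt2 went from -4.40, -4.02 and -3.69 to 2.34, 1.88, 1.00, 2.13 and 2.44, a rise of 6.0 ± 0.34 (adjusted p = 1.70e-05). Dmgdh, which acts on the dimethylglycine that Bhmt leaves, went from -3.61, -4.68 and -3.27 to 2.98, 2.27, 1.83, 2.50 and 2.73, a rise of 6.32 ± 0.36 (adjusted p = 1.72e-05). In these 3 genes the gap between the media exceeded the range within either. Cbs, which draws homocysteine towards cysteine, rose by 2.03 ± 0.31 (adjusted p = 0.00182), and Mtr, Amt and Gcat rose as well. In the folate branch 2 genes fell, Gldc among them, or 1 with any single serum/LIF array left out. Gldc was lost under the replicate block (adjusted p = 0.0613).

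Energy metabolism changed in few genes. Of 23 glycolysis genes 1 rose and 2 fell, or 4 with 2i/LIF replicate 3 left out. Hk1, a hexokinase, stood at 2.29, 2.93 and 2.78 in serum/LIF and at 5.43, 5.14, 4.90, 4.83 and 4.84 in 2i/LIF, a rise of 2.36 ± 0.23 (adjusted p = 0.000173). Slc2a1, the glucose transporter, fell by 1.83 ± 0.36 (adjusted p = 0.00701), from 6.72, 6.57 and 6.95 to 5.32, 3.84, 5.49, 5.24 and 4.71. Pdk1, the kinase that closes pyruvate dehydrogenase, fell by 2.53 ± 0.53 (adjusted p = 0.00876). Of 25 genes of the TCA cycle and glutamine use, Idh1 rose by 1.64 ± 0.23 (adjusted p = 0.00109) and Glul, glutamine synthetase, fell by 1.62 ± 0.28 (adjusted p = 0.00345). None of 34 oxidative phosphorylation genes passed in limma (3 at an unadjusted p under 0.05, 2 with 2i/LIF replicate 2 left out), with a range of -0.34 to 0.56. Of 16 NRF2 and glutathione genes 6 rose and none fell. Nqo1, a quinone reductase, went from -0.11, -0.26 and -0.32 to 2.78, 2.64, 2.33, 2.75 and 2.66, a rise of 2.86 ± 0.19 (adjusted p = 2.87e-05), and Gstp1, a glutathione transferase, rose by 1.95 ± 0.24 (adjusted p = 0.000654). Gsta2, Keap1, Gstm2 and Gsr rose too, Keap1 not under the replicate block (adjusted p = 0.0812). Of 20 genes of the ATF4 response 4 rose, among them Nupr1 (1.94 ± 0.35) and Asns, asparagine synthetase (0.91 ± 0.18). Of these 4, 2 remained as a count with serum/LIF replicate 1 or 2 or 2i/LIF replicate 3 or 4 left out, and Asns was lost under the replicate block.

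**Figure D3:**
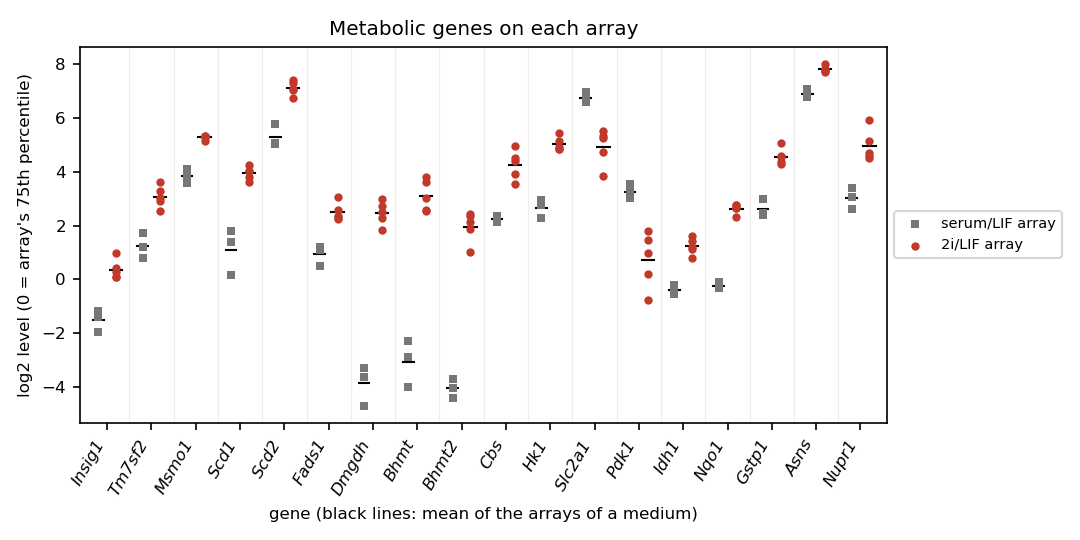
Log2 level of metabolic genes on each array (0 is the array's 75th percentile), grey squares for serum/LIF (3 arrays), red circles for 2i/LIF (5 arrays) and black lines for means. Dmgdh, Bhmt and Bhmt2 lie at -2.29 or lower in serum/LIF and at 1.00 or higher in 2i/LIF, while Slc2a1 and Pdk1 are lower in 2i/LIF.

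Genes of antigen presentation fell. Of 11 such genes 9 fell and none rose, and of 9 interferon response genes 2 fell and 1 rose. Psmb8, a subunit of the immunoproteasome, stood at 1.03, -0.38 and 1.33 in serum/LIF and at -4.78, -5.52, -4.82, -5.86 and -4.76 in 2i/LIF, and fell by 5.81 ± 0.42 (adjusted p = 4.00e-05; -5.14 with dim signals raised). Tap2, the peptide transporter, fell by 3.91 ± 0.37 (adjusted p = 0.000140), from 0.51, -0.21 and 1.14 to -2.68, -3.38, -3.72, -4.01 and -3.38. Psmb9, Psmb10, Tap1, B2m, H2-K1, H2-D1 and H2-T23 fell as well. The class I genes are close copies of each other, so their probes may share signal. Isg15, induced by interferon, fell by 2.80 ± 0.43 (adjusted p = 0.00191), with serum/LIF replicate 3 highest at 2.92. The 11 falls of the list became 6 without serum/LIF replicates 1 or 3.

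Cell cycle genes passed in the G1 list and not in the list of later phases. None of 27 S phase and mitosis genes passed in limma (3 at an unadjusted p under 0.05), within -0.34 to 0.53. Of 10 CDK inhibitors and pocket proteins 5 rose and 2 fell. Cdkn1a, the inhibitor p21, stood at 2.07, 2.38 and 2.41 in serum/LIF and at 4.39, 4.54, 4.20, 4.39 and 4.22 in 2i/LIF, a rise of 2.06 ± 0.19 (adjusted p = 0.000115). Cdkn2a, which encodes p16 and p19ARF, went from 1.68, 0.57 and 1.97 to 3.74, 3.72, 2.76, 3.56 and 3.99, a rise of 2.14 ± 0.37 (adjusted p = 0.00352). Ccnd2, a D-type cyclin, fell by 2.99 ± 0.41 (adjusted p = 0.00100), and Mycn, the more abundant Myc gene of ES cells, fell by 1.30 ± 0.26 (adjusted p = 0.00729), from 5.27, 5.25 and 4.67 to 3.28, 3.48, 4.11, 3.96 and 3.98. The 7 rises of the list became 3 with serum/LIF replicate 1 or 3 left out, and 4 with 2i/LIF replicate 1, 4 or 5 left out.

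Apoptosis genes fell in 10 of 25 and rose in 3, or in 1 with any single serum/LIF array or 2i/LIF replicate 1, 3 or 4 left out. Of 12 BCL2 family genes 6 fell and 2 rose, and of 13 p53 targets 4 fell and 1 rose. Pmaip1, Bmf and Hrk, which promote death, differed by -2.65 ± 0.41, -2.15 ± 0.40 and -2.55 ± 0.46, and all 3 fell (adjusted p = 0.00199, 0.00485 and 0.00438). Bcl2 and Mcl1, which oppose it, were also among the members that fell. Perp, a p53 target and a junction protein, fell by 3.55 ± 0.30 (adjusted p = 8.42e-05), from 4.52, 3.33 and 4.47 to 0.38, 0.37, 0.53, 0.51 and 0.98. None of 38 cytosolic ribosomal protein genes passed, within -0.23 to 0.17, and none of 16 heat shock and unfolded protein genes did, and limma called 0 of either list at an unadjusted p under 0.05. Of 14 hypoxia-inducible genes 1 fell, or 3 with 2i/LIF replicate 3 left out. Of 5 Y-linked genes tested none passed (2 at an unadjusted p under 0.05), and Xist was too dim to be tested. Of 8 metallothionein and zinc genes 3 rose, but 0 with any single serum/LIF array left out and 1 with any single 2i/LIF array left out. Of 29 lysosome and autophagy genes 3 rose and 2 fell, beside 7.82% and 10.3% of all genes. The falls of this list were 0 with serum/LIF replicate 3 left out. They were 1 with serum/LIF replicate 1 or 2 or 2i/LIF replicate 3, 4 or 5 left out. Among its members that rose was Mitf, the pigment cell factor that drives lysosome genes (2.03 ± 0.33, adjusted p = 0.00244).

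**Figure D4:**
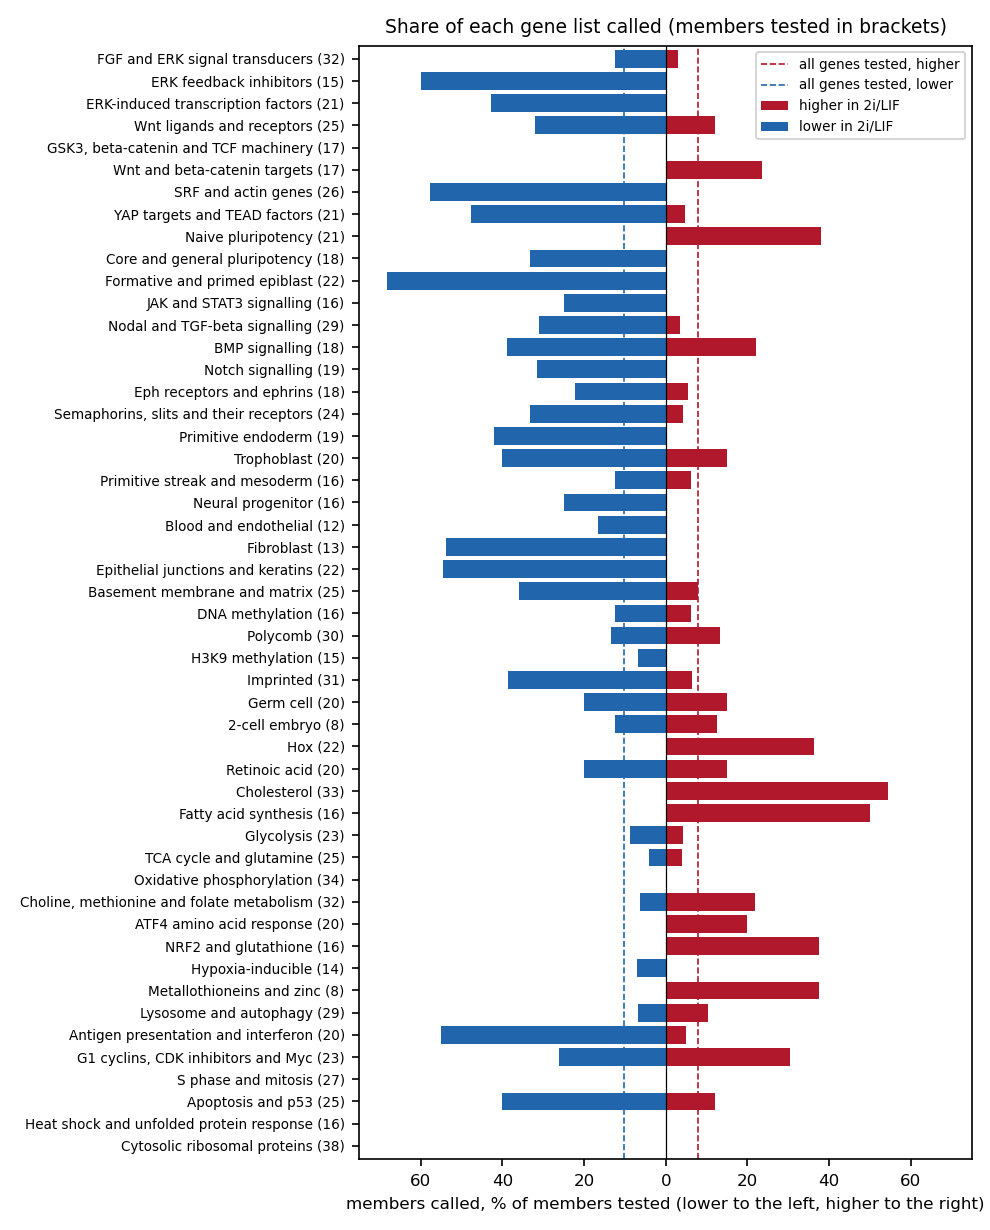
Share of the tested members of each gene list that rose (to the right, %) and fell (to the left, %) in 2i/LIF, with the share over all genes tested (7.82% and 10.3%) as dashed lines. Formative and ERK feedback genes reach far to the left (15 of 22 and 9 of 15), cholesterol and fatty acid genes to the right (18 of 33 and 8 of 16).

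Large changes were also found outside these lists. Crxos, an oocyte and early embryo homeobox gene, stood at -0.70, -0.75 and 1.03 in serum/LIF and at 6.07, 5.18, 5.13, 5.97 and 6.19 in 2i/LIF, a rise of 5.85 ± 0.45 (adjusted p = 5.07e-05). Cnga4, a channel subunit known from olfactory neurons, was above background on all 2i/LIF arrays (1.82, -1.51, 0.25, 0.92 and 1.08) and on none of serum/LIF, at least 49.3-fold higher (adjusted p = 0.000116). Kiss1, the precursor of kisspeptin, went from -5.03, -4.00 and -3.49 to 1.80, 2.20, 1.85, 0.38 and 1.93, a rise of 5.80 ± 0.46 (adjusted p = 6.20e-05). Pglyrp1, which binds bacterial cell walls, rose by 6.26 ± 0.61 (adjusted p = 0.000163), and Dclk3, a kinase gene, by 5.72 ± 0.42 (adjusted p = 4.00e-05). On the other side, Kif1a, a motor of axonal transport, fell by 7.41 ± 0.34 (adjusted p = 9.08e-06; -6.78 with dim signals raised), from 2.72, 2.12 and 2.06 to -5.72, -5.73, -4.64, -4.57 and -4.89. Fndc3c1 stood at 1.29, 0.86 and 1.34 in serum/LIF, and its level in 2i/LIF was lower by at least 67.4-fold (adjusted p = 9.08e-06). Slc39a8, a zinc and manganese transporter, was at least 46.9-fold lower (adjusted p = 8.00e-05). Enpp2, which makes the lipid signal LPA, was at least 51.1-fold lower (adjusted p = 0.000457). Prss23, a secreted protease, was at least 52.8-fold lower (adjusted p = 2.66e-05).

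The 2i/LIF arrays differed among themselves in genes of several roles. Zscan4c and Zscan4f mark a passing state like the 2-cell embryo, which few ES cells hold at a time. Zscan4c stood at 3.69, -2.45, 0.08, 0.22 and 2.53 in 2i/LIF and at 1.59, -1.17 and -0.80 in serum/LIF. Zscan4f, whose probe may share signal with Zscan4c, ran with it (4.24, -1.52, 1.07, 0.98 and 3.29). Replicates 1 and 5 were highest and replicate 2 lowest in both. Cdx1, a homeobox gene, was likewise highest on replicate 1 and lowest on replicate 2 (5.57, 0.38, 2.33, 2.21 and 4.16). T (-0.07, -5.78, -3.13, -1.45 and -3.01), Cdx2 and the Wnt inhibitor Dkk1 (-0.97, -5.81, -2.85, -1.58 and -1.16) were also lowest on replicate 2 and highest on replicate 1. Cd34, a surface protein of blood and vessels, was lowest on replicate 2 at -6.05 and between -2.69 and -0.36 on the others. Gata2, a blood and trophoblast factor, was the reverse, at 1.59 on replicate 2 and between -3.92 and -2.50 on the others. None of these genes passed between the media over the 8 arrays, but several passed under an alternative. Within scan day 3 both Zscan4 genes, Cdx1 (adjusted p = 0.0238) and Dkk1 (adjusted p = 0.0493) passed, and within scan day 1 Cd34 did (adjusted p = 0.0480). With scan day as a block Cdx1 (adjusted p = 0.00946), Cd34 (adjusted p = 0.0168) and Gata2 (adjusted p = 0.0367) passed, and without 2i/LIF replicate 2 Cdx1 (adjusted p = 0.0246) and Gata2 (adjusted p = 0.0425) did. Replicate 2 was the only 2i/LIF array of its scan day, and its mean r with the other 2i/LIF arrays was 0.957, against 0.967 to 0.971.

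**Figure D5:**
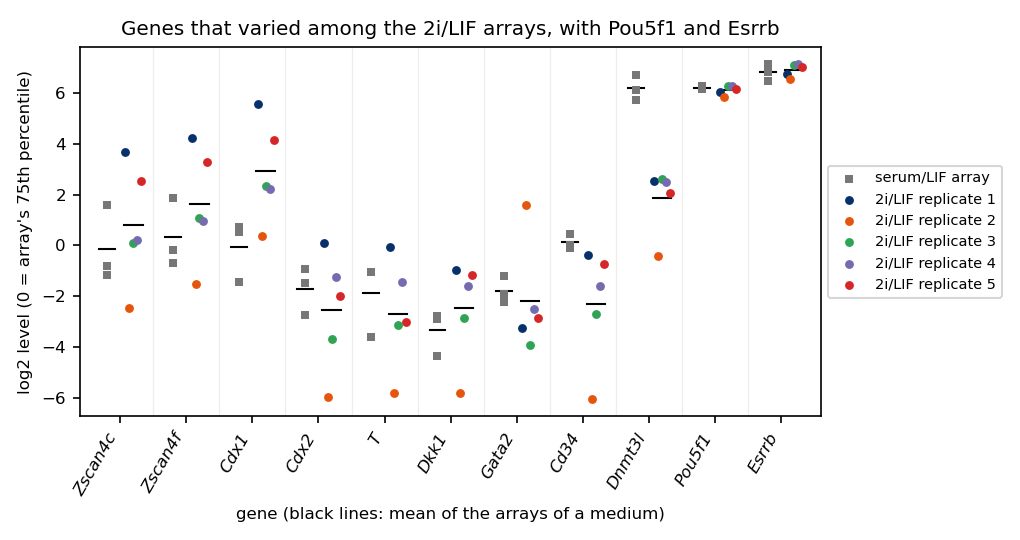
Log2 level on each array of 8 genes named for their spread among the 5 2i/LIF arrays and of Dnmt3l, Pou5f1 and Esrrb, marked by replicate, beside the 3 serum/LIF arrays (0 is the array's 75th percentile). Replicate 2 is lowest except in Gata2, where it stands at 1.59 and the others at -2.50 or lower.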

How the data were processed

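Total RNA of 5 2i/LIF and 3 serum/LIF samples was measured on 1-colour Agilent arrays. The intensity values are processed signals that Agilent Feature Extraction 11.0.1.1 had made before the authors deposited them, per the file headers; probe positions there are those of mm9. Each array was divided by its 75th percentile of intensity over probes, and log2 was taken. Spots of a probe were averaged, control spots and flagged outliers were left out, and a probe was kept where 3 or more of the 8 arrays had it well above background; no probe was saturated. Of 55681 probes, 27656 were named through a RefSeq accession (table of GRCm38.p6, names only). Each of 15980 genes was represented by its probe of highest mean level.

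limma 3.58.1 (R 4.3.3; lmFit, eBayes, no covariates) gave differences, standard errors and Benjamini-Hochberg adjusted p over all genes, with 0.05 as threshold. In data simulated for 15980 genes with independent noise, 100 genes were changed by 1 on the log2 scale and 100 by 2. There limma recovered 15% of the former and 80% of the latter, with 3 false calls. Far fewer genes were changed there than passed in the data, and recovery depends on that share, so these figures are no estimate for this comparison. Precision is limited by how few arrays there are. The scanner files used here hold median signals, so the normexp alternative (offset 50) took the median and not the mean signal. The deposited log2 value table served as an alternative and for the match of arrays; how it was scaled is not stated in the labels.

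Of the 1109 genes in 51 lists, 1026 were tested. The comparison and the lists were chosen with earlier results of these data known. Named genes were a fixed set of regulators, up to 4 members of each list with the largest change in the list's main direction and up to 2 in the other, the 10 largest rises and 10 largest falls outside the lists whose arrays did not overlap, the 8 list genes with the largest SD over 2i/LIF arrays, and Y-linked genes. List members beyond these are named without values, and the results of a few named genes are not reported here. Promoters were printed for the 3 genes of the SRF, YAP and ERK lists with the largest fall that hold a CArG box. Genes on chromosome 18 were left out of that choice, so a larger fall there would not be printed. None of the 12 cholesterol and 5 fatty acid genes that rose and matched a promoter held a sterol element in that window.

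Same-numbered serum/LIF and 2i/LIF arrays did not deviate together (r of -0.002, 0.189 and -0.204), so the numbers were not taken to pair the samples. Alternatives were other background corrections, scalings, filters, probe rules, blocks, scan days, all 11 arrays, a minimum change and leaving out each array.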

Additional observations from a re-analysis of the deposited data

Results flagged for a closer look

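The named genes include 8 chosen for a large SD over these same 2i/LIF arrays, Gata2 among them. Of 232 named genes, 13 (5.6%) had 1 outlying array among the 5 of 2i/LIF, and chance gives about 1 group in 20. The log2 level of that array stood apart by more than 0.71 of the range. In 8 of the 13 it was replicate 2. It was the lower array in 4 of these 8: Dnmt3l stood at -0.43 against 2.05 to 2.63 on the other arrays, Myc at -4.15 against -1.96 to -1.34, and Id1 at -4.08 against -2.01 to -1.44. Stat3 stood at 2.09 against 3.11 to 3.42. Replicate 2 was the higher array in Gata2 (1.59 against -3.92 to -2.50), Ctsz, a lysosomal protease (3.61 against 2.77 to 2.93), Piwil2, a piRNA pathway gene (-2.87 against -3.99 to -3.87), and Hand1 (-5.16 against -6.68 to -6.32, no array well above background). The part of scan day or cell line in these values was not tested.

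Replicate 4 was the low array for Ccnd2 (-5.21 against -3.64 to -3.31), Kiss1 (0.38 against 1.79 to 2.20) and Thrsp, a regulator of lipid synthesis (-2.67 against -1.37 to -0.85). Perp was highest on replicate 5 (0.98 against 0.37 to 0.53), and Stat2, of the interferon response, on replicate 1 (2.78 against 2.29 to 2.37).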

How the results depend on the processing

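No gene was called in opposite directions by the 8-array fit and any alternative. The number of genes that rose, 1250, was 819 with a replicate block (lower: 1250), 706 within scan day 1, 454 within scan day 3 (lower: 785) and 244 against a minimum change of 1 on the log2 scale (lower: 558). Leaving out 1 array gave 713 to 1477 that rose and 1169 to 1787 that fell. Every other alternative kept both counts within 1.5 times, from 862 to 1748 that rose and 1177 to 2021 that fell, the lowest with normexp and the highest with scan day as a block. The share of rises among called genes was 43.2%, but 30.4% against the minimum change. Of 205 named genes that passed, 163 did so with each array left out in turn. Lifr was the 1 value to change sign and be called, at 0.625 with the mean over its probes. With cell line as a covariate, 1083 rose and 1532 fell by the titles and 1091 and 1520 by the source names. Deviations of serum/LIF replicate 3 went with those of 2i/LIF replicates 1 and 5 (r of 0.255 and 0.238), which share its scan day, and not with its own number. By its source name 2i/LIF replicate 1 also shares the E14 line of serum/LIF replicate 3, but by its title it does not. Replicate 5 shares that line by neither label. The part of scan day or cell line was not tested. Dim probes limit the size of the largest changes, most of which are bounds or rest on signals near background.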

Other observations

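Gene families outside the lists, picked after their values were seen and given as a description, held further large differences. Their members are near copies, so probes may share signal. The filter admits a gene seen in a single medium, so the counts over tested genes are not counts over the families. On the X chromosome, 8 of 17 Rhox homeobox genes tested rose and 2 fell. Rhox2c stood at -4.80, -4.13 and -3.27 in serum/LIF and at 2.32, 1.48, 2.51, 0.05 and 2.88 in 2i/LIF, and rose by 5.91 ± 0.62 (adjusted p = 0.000245), while Rhox6 and Rhox9 fell by 2.54 ± 0.62 (adjusted p = 0.0193) and 2.30 ± 0.58 (adjusted p = 0.0223). Rhox5 stayed high on all arrays (5.35 to 6.99). Of 7 Xlr genes 6 rose, with serum/LIF replicate 3 above the other serum/LIF arrays, as in Xlr4a (-1.74 against -6.26 and -6.10). Of 13 Mage genes 6 rose, all of the Magea group, and Magea4 was at least 12.5-fold higher (adjusted p = 0.00014). Magea4, Magea5, Magea8 and Magea10 were tested through their 2i/LIF arrays alone, so only a rise could be seen in them.

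Of 8 Gbp genes, GTPases that interferon induces, 4 fell and none rose. Gbp2 stood at 2.30, 0.72 and 2.51 in serum/LIF and at -4.01 or lower in 2i/LIF, and fell by 6.68 ± 0.47 (adjusted p = 3.75e-05; -6.12 with dim signals raised). For Gbp2b the bound was at least 51.5-fold lower (adjusted p = 1.60e-05). For Gbp3 it was at least 22.8-fold lower (adjusted p = 0.000218). Igfbp3, which binds insulin-like growth factors, fell by 3.58 ± 0.31 (adjusted p = 9.43e-05).

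Deviations from the median over arrays were taken over genes well above background on all 8 arrays. On chromosome 8 their median was 0.216 on 2i/LIF replicate 4 and 0.116 on replicate 1. It was -0.152 on 2i/LIF replicate 2 and -0.133 on serum/LIF replicate 3. Replicate 2 of 2i/LIF was negative on all autosomes and on X, with -0.164 on chromosome 14 and -0.19 on X. Chromosome 11 stood at -0.126 on serum/LIF replicate 1 and at 0.111 on 2i/LIF replicate 5. The other chromosomes of replicate 4 lay between 0.012 and 0.063.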
